A study of Populus tomentosa with 15 samples.

Results

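The genes described here were lower in both transgenic lines of *P. tomentosa* suspension cells than in WT cells, and near the WT level after each line had received its treatment. Of 42635 features in the table, 253 met the choice. They were picked on the difference of group means of log2(FPKM + 1) from the WT, where FPKM is a fragment count scaled to gene length and to sequencing depth. This difference had to be below -1.5 in *OX* and in *anti-3*, and between -1 and 1 in *OX*-H and in *anti-3*-A. Among the identifiers were 249 POPTR gene identifiers, 2 ENSRNA features and 2 features with a name of the submitters' own. A function was at hand for 91 of them, 90 through the study's Gene Ontology (GO) tables and 1 through its text. The identifiers are used as deposited, since the gene table used here, made for *P. tomentosa*, held no POPTR identifier.

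RNA was sequenced in 15 libraries, 3 in each of 5 groups, from cells kept in the dark in shaken liquid medium and collected 5 days after subculture. *OX*-H cells were *PtomtAPX*-overexpressed cells given 10 mM H2O2 for 3 h, and *anti-3*-A cells were *anti-3* cells given 1 mM ascorbate (AsA) for 3 h. *OX* cells carried *PtomtAPX* behind the 35S promoter and had been grown with the cytokinin 6-BA, *anti-3* was a single *PtomtAPX*-antisense line, and WT cells carried no construct. The paper names 6-BA for the overexpressed cells only, so effects of the construct and of 6-BA cannot be told apart in *OX* or *OX*-H. *OX*-H and *anti-3*-A differ in line, 6-BA and compound at once, and these cannot be told apart either. No library of WT cells with either compound, and no mock treatment, was analysed here, so the effect of a compound cannot be told apart from that of handling. In bulk RNA, fewer cells of a type and less RNA per cell cannot be told apart either. The *PtomtAPX* transcript itself was not analysed here, because no identifier is paired with it. The labels do not say that replicates came from separate cultures, so p-values measure only the spread between these libraries.

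PtomtAPX is a mitochondrial ascorbate peroxidase, an enzyme that uses ascorbate to reduce H2O2 to water. H2O2 is a by-product of respiration and also a signal in plant cells. Dividing suspension cells copy their DNA with the help of the MCM complex, the helicase that opens the double helix at replication origins, and pack the new DNA on nucleosomes. They also remodel their walls with secreted hydrolases, and commonly depend on the hormones auxin and cytokinin for division.

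The libraries held 15618191 to 21278437 whole reads (median 17889817), worked back from the steps of the FPKM values. Replicate libraries correlated across genes at 0.9948 or more. Over the 24694 genes that passed the filter on low values (an FPKM of 1 or more in 3 or more of the libraries), the median difference from the WT was -0.10 in *OX*-H, 0.02 in *anti-3*-A, -0.18 in *OX* and -0.26 in *anti-3* on the log2(FPKM + 1) scale. The differences of the 253 genes stand against these shifts. All 253 genes passed the filter.

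By the choice, the 253 genes lay far below the WT in both lines. Their level as a percent of the WT mean FPKM had a median of 20.6% in *OX* (4.43% to 33.5%) and 23.6% in *anti-3* (4.37% to 34.0%). After treatment the median was 73.2% in *OX*-H (31.98% to 177%) and 95.5% in *anti-3*-A (48.1% to 193%). On the log2(FPKM + 1) scale the median difference from the WT was -0.43 in *OX*-H, -0.06 in *anti-3*-A, -1.99 in *OX* and -1.85 in *anti-3*. These values describe the choice and were not tested.

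**Figure D1:**
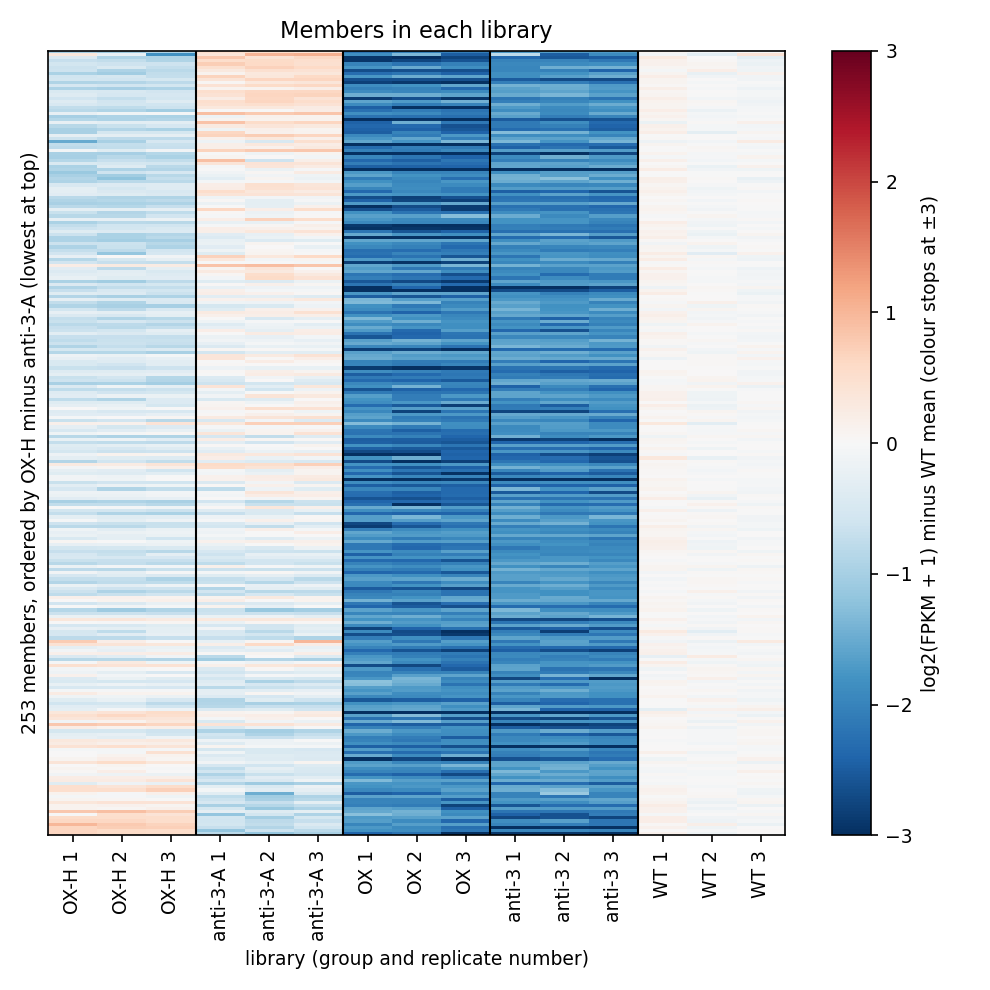
Heat map of the 253 genes (rows) in the 15 libraries (columns, grouped as OX-H, anti-3-A, OX, anti-3 and WT). Colour is log2(FPKM + 1) minus the WT mean of that gene, and rows run by the difference of OX-H and anti-3-A, lowest at the top: the OX and anti-3 columns are blue throughout, as the choice fixed, while the treated columns change from pale blue in OX-H and pale red in anti-3-A at the top to the opposite at the bottom.

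A total of 437 genes were below -1.5 in both lines, whatever their level in the treated cells. Of these, 395 (90.4%) lay within 1 of the WT in *anti-3*-A and 265 (60.6%) did so in *OX*-H, against 97.9% of all tested genes in *anti-3*-A and 84.6% in *OX*-H. The 253 genes were those that did so in both, 57.9% of the 437. A further 167 of the 437 lay at or below -1 in *OX*-H and 41 lay at or below -1 in *anti-3*-A, with genes that were low in both counted under each. Only 6 lay at or above 1 in a treated group.

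Within the band allowed by the choice, more of the genes lay below the WT in *OX*-H than in *anti-3*-A. In *OX*-H, 204 of the 253 genes were below the WT mean and 49 above it, against 56.9% of all tested genes below and 43% above. In *anti-3*-A, 150 were below and 103 above, against 47.5% and 52.4% of all tested genes. All 3 *OX*-H libraries were below all 3 WT libraries for 181 genes and above them for 28 (43% and 31.1% of all tested genes), and all 3 *anti-3*-A libraries were below for 96 and above for 56 (22.5% and 25.9%). Since the choice used these differences, nothing is read from the counts. In 86 genes the mean was below the WT in *OX*-H and above it in *anti-3*-A, in 32 it was above in *OX*-H and below in *anti-3*-A, in 118 it was below in both and in 17 it was above in both. The treated means were within 0.5 of the WT in both groups for 106 genes. Every library of *OX* and *anti-3* was below every library of the other 3 groups for 250 of the 253 genes (19.4% of all tested genes), a count that follows from the choice. The 3 exceptions have no annotation and had group means of 2.45 to 9.65 FPKM in the WT.

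**Figure D2:**
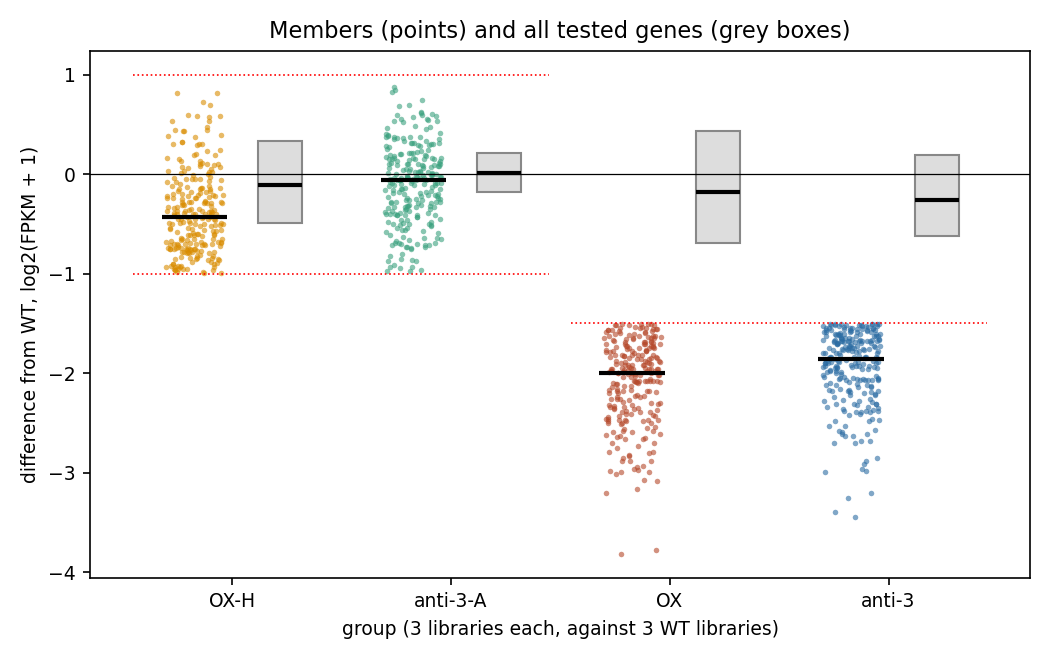
Difference of each group mean from the WT mean, in log2(FPKM + 1), for the 253 genes (points, 1 per gene, with the median as a black bar) beside all 24694 tested genes (grey box from the lower to the upper quartile, with the median). Red dotted lines are the limits of the choice; the points of OX-H crowd toward the lower limit with a median of -0.43, while those of anti-3-A centre near 0 with a median of -0.06.

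The edges of the choice were densely filled. The gene nearest to the limit inside was at -1.502 in *OX* and -1.501 in *anti-3*, and the nearest genes outside were at -1.496 in *OX* and -1.499 in *anti-3*. At the lower limit of the treated groups the nearest gene inside was at -0.997 in *OX*-H and -0.973 in *anti-3*-A, and the nearest outside was at -1.002 in *OX*-H and -1.009 in *anti-3*-A. As many as 336 genes missed the choice through *anti-3* alone, 138 through a level at or below -1 in *OX*-H alone, 128 through *OX* alone and 12 through a level at or below -1 in *anti-3*-A alone. When genes were picked from replicate numbers in pairs, leaving 1 library of each group aside, 243 to 261 genes were picked and the libraries left aside met the whole choice for 68.2% to 78.2% of them. In those libraries the median differences were -1.97 to -2.08 in *OX* and -1.78 to -1.90 in *anti-3*, and -0.36 to -0.47 in *OX*-H and -0.15 to 0.00 in *anti-3*-A.

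In properties that did not enter the choice, the 253 genes differed from all tested genes mainly in level. Their median WT level was 27.2 FPKM (quartiles 13.9 and 69.6), against 8.71 FPKM (quartiles 2.95 and 23.4) over all tested genes. With a pseudocount of 1, a gene at a low level can hardly differ by 1.5, so this too is tied to the choice. The median recovered gene length was 1378 bases, against 1395 bases over all tested genes. The median SD between replicate libraries was 0.11, against 0.10 on the log2(FPKM + 1) scale. In *OX*, 9 of the genes rested on fewer than 30 reads summed over the 3 libraries, and in *anti-3* 7 did. Neighbouring identifier numbers were seen in 3 pairs, 1 of them with both genes annotated (POPTR_0009s12880 and POPTR_0009s12890).

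The choice used each group against the WT, but not *OX* against *anti-3* or *OX*-H against *anti-3*-A. These were tested with limma across all 24694 genes in a single fit of 15 libraries, and a gene was called at a Benjamini-Hochberg adjusted p below 0.05 with no fold minimum. They are differences of the same group means that the choice cut, and it cut them unevenly, as the counts of genes that missed it through a single group show. The choice therefore limits their size and shapes the balance of higher and lower genes among the 253, so the counts over these genes are given as a description beside the shares of all tested genes. It did not fix the direction in a single gene outright, but for a gene close to a limit it left little room for the opposite direction.

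Compared to *anti-3*, 96 of the 253 genes were lower in *OX* (37.9%) and 33 were higher (13.04%). Of all tested genes, 29.3% were lower and 34.8% higher. Over the 253 genes, the log2 fold change had a median of -0.14 (quartiles -0.41 and 0.06), against 0.04 over all tested genes, and the median SE was 0.10. The other 124 genes did not pass the test. Of the 129 called genes, 5 differed by more than 1 on the log2 scale (10.7% of all tested genes were called at this size), and of these 1 was annotated (POPTR_0006s12350).

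Between the treated groups, 194 of the genes were called. Compared to *anti-3*-A, 148 of the 253 genes were lower in *OX*-H (58.5%) and 46 were higher (18.2%), against 42.4% and 28.6% of all tested genes. The median log2 fold change was -0.35 (quartiles -0.66 and 0.04), against -0.13 over all tested genes. Differences of more than 1 were seen in 28 called genes, 16.5% of all tested genes being called at this size. Both tests together called 70 genes lower in *OX* and in *OX*-H (22.6% of all tested genes), 16 higher in both (21%), 7 lower in *OX* and higher in *OX*-H (1.63%), and 11 higher in *OX* and lower in *OX*-H (4.51%). Neither called 34 genes (14.7%). At the thresholds of the study's methods (an adjusted p under 0.001 with a log2 fold change beyond 1.5 in either direction) no gene of the 253 was called in *OX* against *anti-3* and 1, with no function at hand, was called in *OX*-H against *anti-3*-A. These thresholds were passed by 3.70% of all tested genes between the lines and 6.84% between the treated groups.

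**Figure D3:**
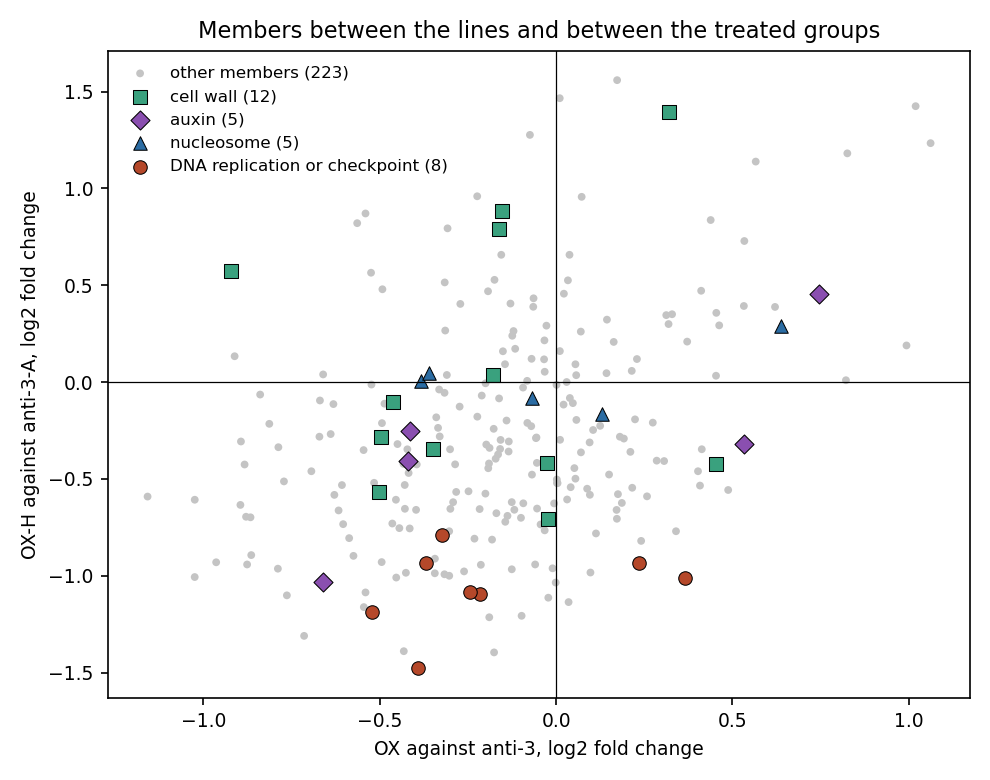
Log2 fold change of OX against anti-3 (x axis) and of OX-H against anti-3-A (y axis) for the 253 genes, 1 point per gene, with 4 function groups marked. The 8 DNA replication or checkpoint genes all lie between -1.48 and -0.79 on the y axis, the 5 nucleosome genes lie between -0.16 and 0.29, and the 12 cell wall genes spread from -0.71 to 1.39.

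Function lists were taken from the study's GO tables, which hold genes called in these same samples, so that a list's direction against the WT is not independent evidence. The 253 genes had members on 8 of 11 lists. There were 13 of 49 genes on the list of DNA replication and chromatin, 12 of 103 on cell wall, 5 of 23 on auxin, 4 of 129 on transcription factors, 3 of 67 on reactive oxygen species, 3 of 9 on salicylic or jasmonic acid, 2 of 70 on tetrapyrrole binding and 2 of 5 on gibberellin. As a base, 90 of the 2389 genes in the GO tables were among the 253. The shares on transcription factors (3.10%), reactive oxygen species (4.48%) and tetrapyrrole binding (2.86%) lay near that base. None of the 138 glycosyltransferase, 27 photosynthesis and 4 tip growth genes were among them. Of the 49 DNA replication and chromatin genes, 47 were called lower and 2 higher than in the WT in *OX*, and likewise 47 and 2 in *anti-3* (46.7% and 50.5% of all tested genes were called lower). The list contains the 8 replication or checkpoint genes and the 5 nucleosome genes that are described next. Splitting it in this way, and naming those of its genes that are not among the 3 most abundant, was decided after their values were seen. Some other lists went mostly the other way in *OX* against the WT: 36 reactive oxygen species genes were called higher and 18 lower, 78 and 25 transcription factors, and 36 and 21 tetrapyrrole binding genes. In *anti-3* these counts were 26 and 20, 60 and 35, and 11 and 29. Cell wall genes were 38 higher and 52 lower in *OX*, and 13 and 59 in *anti-3*.

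The 8 genes annotated to DNA replication or to a cell cycle checkpoint were above or near the WT in *anti-3*-A and below it in *OX*-H. POPTR_0004s13660, annotated to the MCM complex and replication initiation, had 13.3, 12.5 and 12.8 FPKM in *OX*-H and 26.3, 29.4 and 30.4 FPKM in *anti-3*-A. It had 4.61, 4.84 and 5.87 FPKM in *OX* and 6.57, 6.39 and 5.30 FPKM in *anti-3*, against 19.998, 19.5 and 18.6 FPKM in the WT. Thus all *anti-3*-A libraries were above and all *OX*-H libraries below the WT libraries, with no overlap. The log2 fold change of *OX*-H against *anti-3*-A was -1.10 ± 0.09 (SE, limma adjusted p = 2.09e-08). Between *OX* and *anti-3* the libraries overlapped, and the change of -0.22 ± 0.09 (adjusted p = 0.044) was lost without replicate 1 or 2 of either line (-0.19 to -0.16). In all, 8 alternative fits (other settings, or a library left out) lost this call. The *anti-3* mean was close to the limit of the choice (-1.53 from the WT), which left little room for *OX* to be the higher line.

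Both other MCM complex genes among the 253 had the same order. POPTR_0001s12380 had 14.9, 12.1 and 14.7 FPKM in *OX*-H and 25.7, 28.0 and 28.4 FPKM in *anti-3*-A, 3.11, 2.94 and 3.43 FPKM in *OX* and 4.38, 4.46 and 4.26 FPKM in *anti-3*, against 15.6, 16.4 and 15.6 FPKM in the WT. POPTR_0009s12440 had 12.1, 12.1 and 11.2 FPKM in *OX*-H and 24.6, 26.9 and 26.9 FPKM in *anti-3*-A, 3.92, 3.67 and 3.85 FPKM in *OX* and 4.73, 5.06 and 4.34 FPKM in *anti-3*, against 17.7, 17.2 and 16.5 FPKM in the WT. The *anti-3*-A means of the 3 MCM complex genes were 148% to 173% of the WT mean, and the *OX*-H means 66.4% to 87.7%. All 3 were lower in *OX* than in *anti-3*, with log2 fold changes of -0.37 to -0.22. Their *anti-3* means were near the limit of the choice (median -1.65 from the WT), so this shared direction is tied to the choice. The study's list held 4 MCM complex genes in all, and all 4 were called lower in *OX*-H than in *anti-3*-A (42.4% of all tested genes).

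Replication checkpoints hold the cell cycle while DNA is unreplicated or damaged. POPTR_0012s01170, annotated to the DNA replication checkpoint and the response to radiation, had 4.53, 4.26 and 4.82 FPKM in *OX*-H and 14.7, 14.9 and 13.7 FPKM in *anti-3*-A. It had 1.47, 1.75 and 1.62 FPKM in *OX* and 2.41, 2.47 and 2.39 FPKM in *anti-3*, against 10.8, 9.43 and 9.96 FPKM in the WT. No groups overlapped. The difference of *OX*-H from *anti-3*-A, -1.48 ± 0.08 (adjusted p = 1.66e-10), was the most negative of all 253 genes, and its *OX*-H mean lay just inside the limit of the choice. The choice thus left almost no room for a positive difference in this gene.

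POPTR_0018s12050, annotated to the DNA integrity checkpoint, had 9.47, 7.39 and 8.16 FPKM in *OX*-H and 18.6, 21.3 and 20.7 FPKM in *anti-3*-A, 1.54, 1.56 and 1.58 FPKM in *OX* and 3.16, 2.93 and 2.04 FPKM in *anti-3*, against 14.4, 17.3 and 13.6 FPKM in the WT. It was lower in *OX*-H than in *anti-3*-A by a log2 fold change of -1.19 ± 0.12 (adjusted p = 2.81e-07) and in *OX* than in *anti-3* by -0.52 ± 0.12 (adjusted p = 0.00127). In POPTR_0005s24410, which carries both checkpoint terms, the *OX*-H libraries had 7.45, 7.65 and 8.02 FPKM and the *anti-3*-A libraries 15.3, 14.8 and 16.8 FPKM, *OX* had 1.93, 2.53 and 2.34 FPKM and *anti-3* 1.69, 2.13 and 1.52 FPKM, against 13.8, 14.1 and 12.8 FPKM in the WT. Between the lines, *OX* was higher at the edge of the threshold (log2 fold change 0.24 ± 0.09, adjusted p = 0.0394), and the call was lost without *OX* replicate 2 or 3 or *anti-3* replicate 1 or 3 (0.17 to 0.22). It was lost in 8 alternative fits in all.

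The remaining 2 replication genes were POPTR_0015s06800 and POPTR_0011s06860. POPTR_0015s06800 had 14.5, 12.5 and 14.3 FPKM in *OX*-H and 27.5, 30.4 and 28.2 FPKM in *anti-3*-A, 5.76, 5.16 and 6.43 FPKM in *OX* and 3.88, 4.20 and 4.70 FPKM in *anti-3*, against 20.6, 20.1 and 17.02 FPKM in the WT. POPTR_0011s06860 had 6.20, 6.88 and 6.79 FPKM in *OX*-H and 12.2, 12.5 and 11.9 FPKM in *anti-3*-A, 2.90, 2.53 and 3.08 FPKM in *OX* and 3.88, 3.56 and 3.95 FPKM in *anti-3*, against 14.1, 12.8 and 11.3 FPKM in the WT. It was the only one of the 8 whose *anti-3*-A libraries overlapped the WT.

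Across the 8 replication or checkpoint genes, the median log2 fold change of *OX*-H against *anti-3*-A was -1.05, against -0.35 over the 253 genes and -0.13 over all tested genes. All 8 were called lower, with a highest adjusted p of 6.51e-07, against 58.5% of the 253 genes and 42.4% of all tested genes. All 8 stayed so, at the same threshold, under every other setting of the fit and with any library of these groups left out. In 7 of the 8 every *anti-3*-A library was above every WT library (25.9% of all tested genes), and in all 8 every *OX*-H library was below every WT library (43% of all tested genes, and 181 of the 253). On the study's wider list of 23 genes with these terms, chosen on these samples against the WT, 22 were lower and none higher in *OX*-H than in *anti-3*-A (42.4% and 28.6% of all tested genes). In *OX* against *anti-3*, 6 of the 8 were called lower and 2 higher (29.3% and 34.8% of all tested genes). The calls of POPTR_0004s13660 and POPTR_0005s24410 were lost without single libraries as given above. Genes close to the *anti-3* limit, such as POPTR_0004s13660 (-1.53 from the WT) and POPTR_0011s06860 (-1.52), had little room for a higher *OX*.

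Nucleosome genes stayed below the WT after both treatments. Nucleosomes are the units of histone proteins around which DNA is wound. POPTR_0006s08230, the most abundant of the 5, had 485, 485 and 471 FPKM in *OX*-H and 489, 481 and 469 FPKM in *anti-3*-A, 193, 193 and 183 FPKM in *OX* and 249, 260.0 and 234 FPKM in *anti-3*, against 754, 759.7 and 759 FPKM in the WT. The treated groups overlapped and did not pass the test (log2 fold change 0.00 ± 0.04, adjusted p = 0.948), and their means were 63.4% of the WT mean in *OX*-H and 63.3% in *anti-3*-A, with no overlap with the WT libraries. *OX* was lower than *anti-3* (log2 fold change -0.38 ± 0.04, adjusted p = 1.35e-06). The *anti-3* mean of this gene was near the limit of the choice (-1.61 from the WT), which left little room for *OX* to be the higher line.

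POPTR_0002s04410 had 139.9, 144 and 122 FPKM in *OX*-H and 115, 108 and 109 FPKM in *anti-3*-A, 59.8, 62.2 and 68.1 FPKM in *OX* and 37.2, 39.7 and 44.4 FPKM in *anti-3*, against 214, 217 and 205 FPKM in the WT. In this gene the *OX* side was the higher one in both tests, by 0.64 ± 0.07 between the lines (adjusted p = 1.33e-06) and by 0.29 ± 0.07 between the treated groups (adjusted p = 0.00204). Its *anti-3*-A mean was near the lower limit of the choice (-0.93 from the WT), leaving *OX*-H little room to be the lower treated group. POPTR_0002s10030 had 81.7, 88.0 and 89.0 FPKM in *OX*-H and 93.6, 82.9 and 97.8 FPKM in *anti-3*-A, 40.2, 33.1 and 40.3 FPKM in *OX* and 37.1, 43.5 and 38.6 FPKM in *anti-3*, against 149, 156 and 147 FPKM in the WT, and passed neither test.

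For all 5 nucleosome genes, the other 2 being POPTR_0005s24130 and POPTR_0018s10070, every library of *OX*-H and of *anti-3*-A was below every WT library (43% of all tested genes in *OX*-H and 22.5% in *anti-3*-A). Their means were 57.3% to 63.8% of the WT in *OX*-H and 52.1% to 66.3% in *anti-3*-A, against 24.0% to 29.9% in *OX* and 19.1% to 32.7% in *anti-3*. In *OX*-H against *anti-3*-A 1 was higher, 1 lower and 3 did not pass the test, with a median log2 fold change of 0.00 (28.6% of all tested genes were higher and 42.4% lower). The lower one, POPTR_0005s24130 (-0.16 ± 0.07, adjusted p = 0.0454), did not pass with library medians aligned (-0.05), nor without *OX*-H replicate 2 or 3 or *anti-3*-A replicate 1 or 2 (-0.18 to -0.12). Its call was lost in 8 alternative fits in all. Of the 25 nucleosome or chromatin genes on the study's list, these 5 included, 17 were lower and 2 higher in *OX*-H than in *anti-3*-A. Nucleosome genes can have near-identical copies, and how reads shared between copies were counted is not given in the sources used here, so the share of each gene is uncertain.

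**Figure D4:**
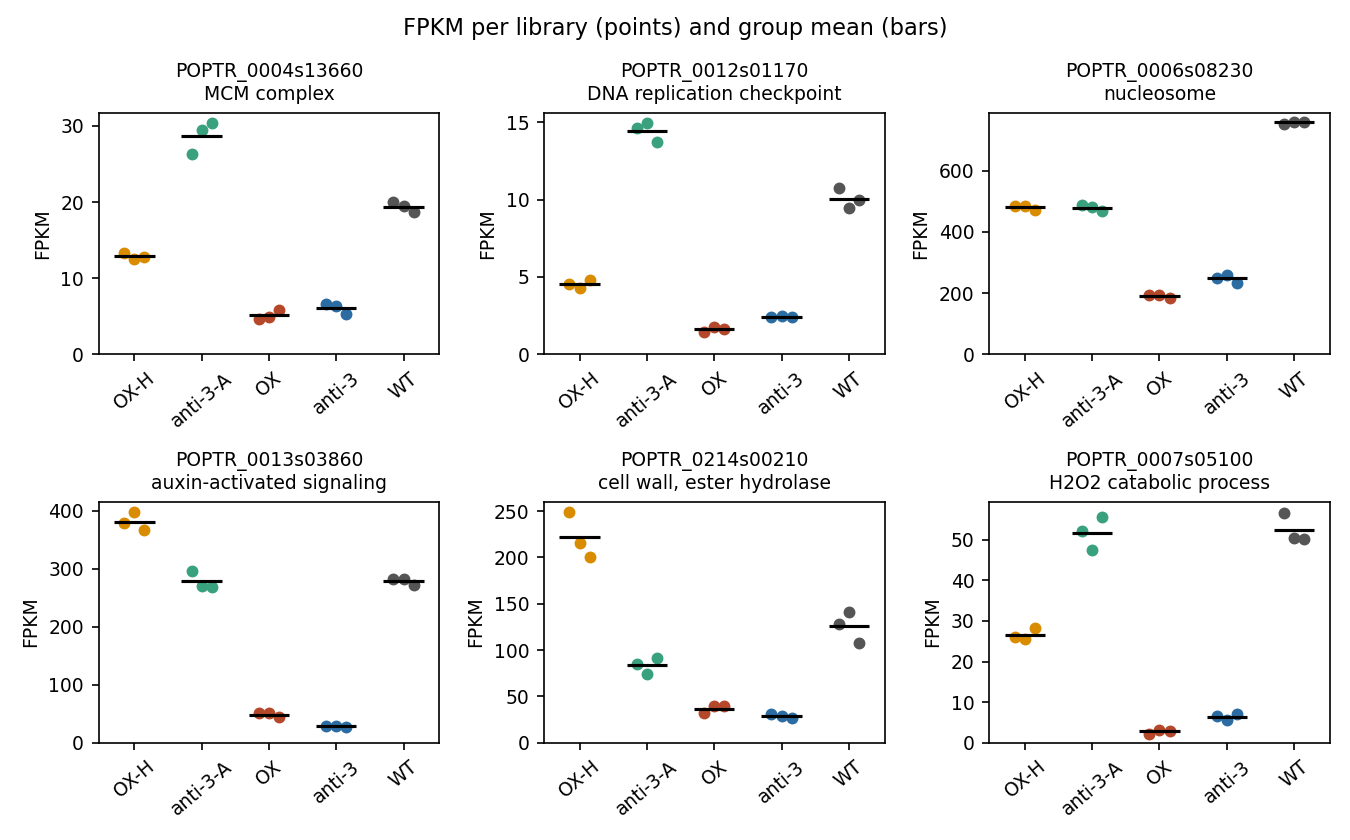
FPKM in each library (points, 3 per group) and the group mean (black bar) for 6 of the 253 genes, with groups in the order OX-H, anti-3-A, OX, anti-3 and WT and each axis starting at 0. The MCM complex and checkpoint genes peak in anti-3-A, the nucleosome gene is at 63.4% of the WT in OX-H and 63.3% in anti-3-A, the auxin and ester hydrolase genes peak in OX-H, and the H2O2 catabolic gene is at the WT level in anti-3-A and at 50.9% of it in OX-H.

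Auxin genes, 5 in number, were at 7.01% to 20.7% of the WT mean in *OX* and 10.2% to 19.0% in *anti-3*, values that belong to the choice. Auxin is the growth hormone that is moved from cell to cell by efflux carriers. POPTR_0013s03860, annotated to auxin-activated signaling, had 379.5, 397 and 366 FPKM in *OX*-H and 297, 269 and 268 FPKM in *anti-3*-A. It had 50.7, 50.6 and 44.2 FPKM in *OX* and 29.1, 28.6 and 27.7 FPKM in *anti-3*, against 283, 283 and 273 FPKM in the WT. The *OX* side was higher in both tests, by 0.75 ± 0.06 between the lines (adjusted p = 2.01e-08) and by 0.45 ± 0.06 between the treated groups (adjusted p = 3.45e-06). POPTR_0006s03540, annotated as an auxin efflux transporter, went the other way: it had 13.6, 12.4 and 13.8 FPKM in *OX*-H and 24.3, 32.8 and 28.0 FPKM in *anti-3*-A, 2.04, 2.51 and 1.90 FPKM in *OX* and 3.89, 4.32 and 3.71 FPKM in *anti-3*, against 23.6, 19.8 and 19.4 FPKM in the WT. Its log2 fold changes were -0.66 ± 0.11 for *OX* against *anti-3* (adjusted p = 6.61e-05) and -1.03 ± 0.11 for *OX*-H against *anti-3*-A (adjusted p = 4.27e-07).

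POPTR_0009s12880 and POPTR_0009s12890, which have consecutive identifier numbers and the term response to auxin, were at lower levels. POPTR_0009s12880 had 14.2, 14.5 and 11.7 FPKM in *OX*-H and 18.4, 17.4 and 18.6 FPKM in *anti-3*-A, 2.70, 2.202 and 1.58 FPKM in *OX* and 3.22, 2.26 and 4.33 FPKM in *anti-3*, against 19.99, 15.1 and 16.8 FPKM in the WT. Both its calls (-0.42 ± 0.16, adjusted p = 0.032, between the lines, and -0.41 ± 0.16, adjusted p = 0.0326, between the treated groups) were lost when some single libraries were left out: the first without *OX* replicate 2 or 3 or *anti-3* replicate 1 or 3 (-0.44 to -0.25, the smallest without *anti-3* replicate 3), the second without *OX*-H replicate 3 or *anti-3*-A replicate 1 or 3 (-0.40 to -0.32). Each of these calls was lost in 7 alternative fits in all. In POPTR_0009s12890, named for this pairing after its values were seen, *OX* had 2.19, 2.99 and 1.09 FPKM and *anti-3* had 1.13, 1.24 and 0.842 FPKM, with overlap, and the log2 fold change was 0.53 ± 0.19 (adjusted p = 0.0241). This call was lost without *OX* replicate 1 or 2 or *anti-3* replicate 3 (0.32 to 0.48, the smallest without *OX* replicate 2), and in 5 alternative fits in all. A direction between the lines is thus not firm for either neighbour. Of the 23 auxin genes on the study's list, 22 passed the filter, and among these 20 were called lower in *OX* and 22 in *anti-3* than in the WT and none higher, again for a list chosen on these samples. Among all tested genes, 46.7% were called lower in *OX* and 50.5% in *anti-3*.

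The 12 cell wall genes had log2 fold changes of -0.71 to 1.39 between the treated groups. In *OX*-H against *anti-3*-A, 4 were higher, 4 were lower and 4 did not pass the test (median log2 fold change -0.19), and in *OX* against *anti-3* 1 was higher and 5 were lower (median -0.17). Of all tested genes, 28.6% were higher and 42.4% lower between the treated groups, and 34.8% and 29.3% between the lines. Of the 91 cell wall genes on the study's list that passed the filter, 57 were higher and 16 lower in *OX*-H than in *anti-3*-A. Between the lines, 53 of them were higher and 28 lower in *OX*. The choice cut the 12 genes but not the list as a whole, so nothing is read from setting them side by side. Wall hydrolases acting on ester bonds trim side groups of wall polymers. POPTR_0214s00210, with this annotation, had 249, 216 and 200.2 FPKM in *OX*-H and 85.5, 74.1 and 91.7 FPKM in *anti-3*-A, 31.6, 39.4 and 39.4 FPKM in *OX* and 31.2, 29.3 and 27.1 FPKM in *anti-3*, against 128, 141 and 108 FPKM in the WT. It stood above every WT library in *OX*-H and below every WT library in *anti-3*-A, and the difference between the treated groups was 1.39 ± 0.11 (adjusted p = 2.00e-08). Between the lines it was 0.32 ± 0.11 (adjusted p = 0.0208), a call lost without *OX* replicate 2 or 3 or *anti-3* replicate 3 (0.27 each), and in 4 alternative fits in all. The *OX*-H mean was near the upper limit of the choice (0.82 from the WT), leaving *OX*-H little room to be the lower treated group.

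POPTR_0005s21740, annotated to the cell wall, the plasmodesma and H2O2 catabolism, had 619, 598 and 588 FPKM in *OX*-H and 347, 418 and 455 FPKM in *anti-3*-A, 134, 122 and 101 FPKM in *OX* and 224, 236 and 216 FPKM in *anti-3*, against 679, 640.2 and 669 FPKM in the WT. *OX* was the lower line (-0.92 ± 0.09, adjusted p = 4.59e-07), yet *OX*-H was the higher treated group (0.57 ± 0.09, adjusted p = 5.17e-05), so that the order of the sides was reversed after treatment. Its *anti-3* mean was close to the limit of the choice (-1.55 from the WT), which left little room for *OX* to be the higher line. The chitinase POPTR_0019s12390, an enzyme that splits chitin, had 87.0, 89.2 and 97.3 FPKM in *OX*-H and 87.6, 83.7 and 95.9 FPKM in *anti-3*-A, 32.2, 34.7 and 40.4 FPKM in *OX* and 40.4, 43.1 and 38.0 FPKM in *anti-3*, against 119, 128 and 126 FPKM in the WT. It passed neither test (adjusted p = 0.0541 between the lines and 0.709 between the treated groups). Both treated groups were below the WT libraries and above those of their lines.

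Of the 3 genes annotated to H2O2 or reactive oxygen species, POPTR_0005s21740 is given above. POPTR_0007s05100, an extracellular gene with the terms H2O2 catabolic process and tetrapyrrole binding, was furthest below the WT in *OX* on the log2(FPKM + 1) scale, though not in percent of the WT mean (5.36%). It had 26.1, 25.6 and 28.3 FPKM in *OX*-H and 52.1, 47.6 and 55.6 FPKM in *anti-3*-A, 2.25, 3.18 and 3.01 FPKM in *OX* and 6.62, 5.57 and 7.04 FPKM in *anti-3*, against 56.7, 50.3 and 50.2 FPKM in the WT. The *anti-3*-A libraries overlapped the WT and the *OX*-H libraries did not. It was lower on the *OX* side by nearly the same amount before and after treatment, with log2 fold changes of -0.96 ± 0.10 (adjusted p = 5.18e-07) between the lines and -0.93 ± 0.10 (adjusted p = 5.31e-07) between the treated groups. Its *OX*-H mean was near the lower limit of the choice (-0.95 from the WT), so a positive difference between the treated groups had little room. The other tetrapyrrole binding gene, POPTR_0002s03440, had 8.26, 8.40 and 9.62 FPKM in *OX*-H and 5.29, 4.22 and 4.41 FPKM in *anti-3*-A, 0.696, 0.769 and 1.13 FPKM in *OX* and 1.35, 1.65 and 0.948 FPKM in *anti-3*, against 6.10, 5.56 and 4.94 FPKM in the WT. It was higher in *OX*-H than in *anti-3*-A (0.79 ± 0.13, adjusted p = 4.61e-05), and *OX* was the lower line at the edge of the threshold (-0.31 ± 0.13, adjusted p = 0.0466), a call lost without replicate 1 or 2 of either line (-0.29 to -0.21). In all, 8 alternative fits lost the call between the lines. The *anti-3* mean of this gene was just inside the limit of the choice (-1.505 from the WT). The choice thus left almost no room for *OX* to be the higher line.

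Terms of several lists met in POPTR_0008s13090, a transcription factor annotated to the gibberellin, jasmonic acid and salicylic acid pathways, to the negative regulation of gibberellin signaling and to the regulation of reactive oxygen species. It had 17.2, 17.3 and 16.98 FPKM in *OX*-H and 13.6, 14.9 and 15.4 FPKM in *anti-3*-A, 7.16, 6.79 and 6.11 FPKM in *OX* and 6.98, 6.66 and 6.91 FPKM in *anti-3*, against 24.7, 23.7 and 25.0 FPKM in the WT. The lines overlapped (-0.03 ± 0.07, adjusted p = 0.675) and the treated groups did not (0.21 ± 0.07, adjusted p = 0.00805). The second gibberellin gene, POPTR_0013s02980, had 25.6, 27.5 and 28.8 FPKM in *OX*-H and 26.0, 31.0 and 27.5 FPKM in *anti-3*-A, 10.4, 10.2 and 8.75 FPKM in *OX* and 12.99, 12.003 and 12.6 FPKM in *anti-3*, against 45.1, 43.1 and 45.3 FPKM in the WT. Here the lines differed (-0.33 ± 0.07, adjusted p = 0.00114) and the treated groups overlapped (adjusted p = 0.657). Both gibberellin genes stayed below every WT library in both treated groups.

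Of the other salicylic acid genes, POPTR_0005s14640, also annotated to the plasmodesma, had 198, 234 and 216 FPKM in *OX*-H and 378, 292 and 357 FPKM in *anti-3*-A, 46.8, 49.98 and 38.4 FPKM in *OX* and 51.4, 68.2 and 63.5 FPKM in *anti-3*, against 247, 243 and 213 FPKM in the WT. It was lower on the *OX* side in both tests (-0.43 ± 0.12, adjusted p = 0.00526, and -0.65 ± 0.12, adjusted p = 0.000146). POPTR_0018s05980 rested on low values, with 2.74, 0.857 and 0.823 FPKM in *anti-3*, against 6.99, 9.61 and 9.97 FPKM in the WT, and passed neither test. Of the transcription factors, POPTR_0007s05010 had 154, 158 and 161 FPKM in *OX*-H and 208, 229 and 215 FPKM in *anti-3*-A, 54.9, 50.7 and 46.3 FPKM in *OX* and 39.97, 36.4 and 37.7 FPKM in *anti-3*, against 217, 206 and 189 FPKM in the WT. *OX* was the higher line (0.40 ± 0.06, adjusted p = 5.76e-05) and *OX*-H the lower treated group (-0.46 ± 0.06, adjusted p = 1.12e-05). POPTR_0005s18620, annotated to cell differentiation, was at 54.7% of the WT mean in *OX*-H and 50.2% in *anti-3*-A, against 26.7% in *OX* and 22.3% in *anti-3*, with a difference between the lines of 0.23 ± 0.08 (adjusted p = 0.0163) and no call between the treated groups (0.12 ± 0.08, adjusted p = 0.179). The call between the lines was lost without *OX* replicate 1 (0.15) or *anti-3* replicate 3 (0.21), and in 3 alternative fits in all.

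Among the annotated genes, those furthest below the WT over both lines were POPTR_0005s01490, POPTR_0007s05100, POPTR_0013s03860, POPTR_0008s20710 and POPTR_0008s12210. POPTR_0005s01490, an integral membrane protein, had 44.1, 42.9 and 44.7 FPKM in *OX*-H and 82.2, 72.6 and 80.4 FPKM in *anti-3*-A, 8.51, 7.56 and 8.25 FPKM in *OX* and 7.42, 7.26 and 5.56 FPKM in *anti-3*, against 96.7, 77.5 and 76.3 FPKM in the WT. It was 9.71% of the WT mean in *OX* and 8.08% in *anti-3*, and the *OX*-H libraries stayed well below those of *anti-3*-A (-0.82 ± 0.10, adjusted p = 2.00e-06). Its *OX*-H mean was near the lower limit of the choice (-0.90 from the WT), leaving *OX*-H little room to be the higher treated group. Between the lines the difference was 0.24 ± 0.10 (adjusted p = 0.0428), and the call was lost in 9 alternative fits. Among these were the fits without *OX* replicate 1 or 3 (0.21 and 0.23), without *anti-3* replicate 3 (0.13) and with library medians aligned. POPTR_0008s20710, annotated to chemical homeostasis, had 54.5, 55.3 and 57.4 FPKM in *OX*-H and 103, 115 and 106 FPKM in *anti-3*-A, 10.3, 9.06 and 8.72 FPKM in *OX* and 18.7, 17.3 and 17.9 FPKM in *anti-3*, against 96.2, 90.3 and 88.2 FPKM in the WT. Like POPTR_0007s05100 it was lower on the *OX* side by a like amount in both tests (-0.88 ± 0.06, adjusted p = 9.40e-09, and -0.94 ± 0.06, adjusted p = 2.19e-09). The nuclear gene POPTR_0008s12210 was the lower one in *OX* (-0.49 ± 0.11, adjusted p = 0.0012) and the higher one in *OX*-H (0.48 ± 0.11, adjusted p = 0.00126).

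Beside POPTR_0013s03860 and POPTR_0214s00210, the annotated genes with the most positive called differences were POPTR_0006s12350, POPTR_0001s29560 and POPTR_0005s07290. POPTR_0006s12350, an integral membrane protein, had 331, 328 and 329 FPKM in *OX*-H and 154, 112 and 158 FPKM in *anti-3*-A, 68.9, 72.9 and 74.0 FPKM in *OX* and 33.1, 35.9 and 32.9 FPKM in *anti-3*, against 261, 212 and 209.6 FPKM in the WT. No groups overlapped, and the *OX* side was higher by 1.06 ± 0.11 between the lines (adjusted p = 3.97e-07) and by 1.23 ± 0.11 between the treated groups (adjusted p = 4.79e-08). Its *OX* mean was near the limit of the choice (-1.64 from the WT), which left little room for *OX* to be the lower line. POPTR_0001s29560, an extracellular gene, had 2101, 2002 and 1970 FPKM in *OX*-H and 591, 863 and 769 FPKM in *anti-3*-A, 378, 369 and 296 FPKM in *OX* and 345, 352 and 332 FPKM in *anti-3*, against 1360, 1303 and 1365 FPKM in the WT. Its *anti-3*-A mean was near the lower limit of the choice (-0.87 from the WT), leaving *OX*-H little room to be the lower treated group. The lines overlapped (0.01 ± 0.11, adjusted p = 0.939), while *OX*-H was above the WT and *anti-3*-A below it (1.47 ± 0.11, adjusted p = 7.85e-09). In POPTR_0005s07290, annotated to the regulation of transcription, the reverse held: *OX* had 48.1, 48.8 and 42.2 FPKM and *anti-3* 25.3, 24.8 and 27.1 FPKM (0.82 ± 0.06, adjusted p = 1.82e-08), while *OX*-H had 215, 218 and 206 FPKM and *anti-3*-A 211, 216 and 207 FPKM (0.01 ± 0.06, adjusted p = 0.902), against 185, 165 and 160.4 FPKM in the WT.

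The most abundant gene in the WT was POPTR_0009s11920, annotated to RNA binding, which was singled out after its values were seen. It had 3129, 2806 and 3322 FPKM in *OX*-H and 3263, 3480 and 3131 FPKM in *anti-3*-A, 652, 669.9 and 583 FPKM in *OX* and 1049, 1032 and 947 FPKM in *anti-3*, against 3221, 3476 and 3457 FPKM in the WT. Both treated groups overlapped the WT, and *OX* was lower than *anti-3* (-0.67 ± 0.07, adjusted p = 6.31e-07). POPTR_0010s15270, named in the same way, is annotated as a glycosyl hydrolase anchored in the plasma membrane, and had 2138, 2093 and 2064 FPKM in *OX*-H and 1121, 1447 and 1452 FPKM in *anti-3*-A, 528, 489.8 and 415 FPKM in *OX* and 522, 559 and 508 FPKM in *anti-3*, against 1792, 1802 and 1874 FPKM in the WT. As in POPTR_0001s29560, the treated groups lay on opposite sides of the WT while the lines overlapped.

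The study's text names 1 of the 253 genes, the UDP-glycosyltransferase POPTR_0003s14230, which belongs to the enzymes that attach sugars to small molecules, hormones included. It is not on the glycosyltransferase list, which came from GO terms alone. It had 23.4, 22.4 and 23.7 FPKM in *OX*-H and 25.9, 26.8 and 27.6 FPKM in *anti-3*-A, 7.79, 7.82 and 7.67 FPKM in *OX* and 8.77, 8.78 and 8.41 FPKM in *anti-3*, against 28.4, 25.7 and 27.5 FPKM in the WT. The differences between the sides were small (-0.14 ± 0.05, adjusted p = 0.0344, between the lines and -0.20 ± 0.05, adjusted p = 0.00417, between the treated groups), and both calls were lost under some alternatives, the first without any 1 of the 3 *OX* libraries or *anti-3* replicate 1 or 2 (-0.15 to -0.13) and the second with library medians aligned (-0.09). The first call was lost in 7 alternative fits in all and the second in 1. The *anti-3* mean was close to the limit of the choice (-1.545 from the WT), which left little room for *OX* to be the higher line. Of the 162 genes with no function at hand, POPTR_0012s14490 was the most abundant in the WT, with 887, 877 and 961 FPKM in *OX*-H and 1092, 1074 and 1219 FPKM in *anti-3*-A, 212, 210.4 and 222 FPKM in *OX* and 207, 205 and 192 FPKM in *anti-3*, against 786, 737 and 697 FPKM in the WT. POPTR_0001s05520 lay furthest below the WT over both lines, with 88.7, 92.1 and 102 FPKM in *OX*-H and 74.6, 72.9 and 81.8 FPKM in *anti-3*-A, 7.79, 7.53 and 6.78 FPKM in *OX* and 5.62, 5.88 and 5.61 FPKM in *anti-3*, against 78.3, 65.5 and 65.2 FPKM in the WT. In both genes every treated library was above every library of the lines.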

How the data were processed

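Total RNA of *P. tomentosa* suspension cells was sequenced on a HiSeq instrument, and the FPKM values were computed and deposited by the authors in a table of 15 libraries. The submitters' processing notes name Bowtie2 2.2.3, TopHat2 2.0.12 and HTSeq 0.6.1, whereas the paper's methods name SOAP2 with up to 2 mismatches against *P. trichocarpa* and RPKM; the sources used here do not say which made the table, how shared reads were counted or whether strand was used. The authors' tables of their own comparisons (fold changes and p-values) were not used.

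Values were analysed as log2(FPKM + 1), which understates the change of low genes. The main test was limma 3.58.1 (R 4.3.3) with a mean-variance trend, all 15 libraries in 1 fit, on 24694 genes (FPKM of 1 or more in 3 or more libraries), with p-values adjusted by Benjamini-Hochberg over these genes. Whole reads were worked back from the FPKM steps: each of the 445124 nonzero values was a whole number of reads to within 0.0001, and these gave gene lengths and the depth of each library, 15618191 to 21278437 reads. Counting error is small at this depth for all but the lowest genes. The fit and the recovery were tested on simulated data. Python 3.11.15 was used for the rest.

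The members, the lists and the tests were chosen with earlier results of these data known. The genes named are those the study's text names, the 3 most abundant annotated members of each list, the 5 annotated members lowest over both lines, the 3 most positive and 3 most negative called, non-overlapping annotated members of each test, and 2 members with no annotation; others are marked as chosen after their values were seen. GO terms came from tables of genes called in these samples, partly shortened, so a gene without a term may only be missing from them. Alternatives were other pseudocounts, filters and normalizations, limma on the compared groups alone, without the trend or with voom on the whole reads, a replicate block, the study's thresholds, and leaving out each library.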

Additional observations from a re-analysis of the deposited data

How the results depend on the processing

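The number of genes meeting the choice depended on the pseudocount and on the limits. It was 477 with a pseudocount of 0.1 (240 shared with the 253) and 27 with limits of -2 for the lines and 0.5 for the treated groups. With a pseudocount of 0.5 it was 336, with library medians aligned 170 (159 shared) and with quantile normalization 211 (197 shared). Leaving out single libraries gave 244 to 262 genes, and 197 of the 253 were picked with each of the 15 libraries left out in turn.

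The 129 genes called in *OX* against *anti-3* became 111 to 125 with single libraries left out and 108 to 143 under other settings, and the 194 called in *OX*-H against *anti-3*-A became 180 to 193 and 179 to 201. At the study's thresholds the counts were 0 and 1. Under every other setting more of the called genes were lower than higher on the *OX* side. All these fits were read on genes of the same choice, which shaped this balance, so nothing is read from it. The replicate numbers did not pair the libraries: deviations of same-numbered libraries correlated at -0.06 to 0.04 across genes, and a replicate block gave 132 and 190 calls.

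None of the 60 calls on genes named in the text passed the study's thresholds. Under the other alternatives, 12 of the 60 lost significance at least once, 9 between the lines and 3 between the treated groups, and none changed sign. These were POPTR_0002s03440, POPTR_0003s14230, POPTR_0004s13660, POPTR_0005s01490, POPTR_0005s18620, POPTR_0005s24410, POPTR_0009s12880, POPTR_0009s12890 and POPTR_0214s00210 between the lines, and POPTR_0003s14230, POPTR_0005s24130 and POPTR_0009s12880 between the treated groups. Their values without the libraries concerned stand beside each result, with the number of alternative fits that lost the call. Depth limits chiefly the 9 genes under 30 reads in *OX* and the 7 in *anti-3*.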
